A study of Mus musculus with 8 samples.

Results

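Chromatin remodelers and histone modifying enzymes were examined as 1 module of 92 genes on expression arrays of mouse embryonic stem (ES) cells before and after retinoic acid (RA). The members were taken by name: every gene on the array whose symbol begins with Kdm, Hdac, Smarc, Chd, Sirt, Arid, Setd, Prmt or Brd followed by the family's number or letters. They were covered by 144 of the 55681 probes, and the array names 31796 genes or transcripts apart from genome positions. E14Tg2A.4 is an established line of mouse ES cells. There were 4 untreated cultures and 4 cultures after 72 h of RA, described as biological replicates, and the study's methods state that RA was all-trans, at 1 µM, and given in medium without leukemia inhibitory factor, the cytokine that holds mouse ES cells undifferentiated. The effect of RA and that of the withdrawn factor cannot be told apart in this design. The labels of these arrays name no knockdown and no transgene in either group. The comparison asks which of these regulators change their transcript level as ES cells leave self-renewal.

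Remodelers of the SWI/SNF, ISWI and CHD families spend ATP to slide, evict or restructure nucleosomes. In ES cells the SWI/SNF complex is built around the ATPase *Smarca4* with a core of *Smarcc1* and *Smarcd1*, whereas other tissues use paralogs of these subunits. Deacetylases and sirtuins remove acetyl groups from histone tails, Kdm enzymes remove methyl groups from lysines, SET domain proteins and Prmt enzymes add methyl groups to lysines and arginines, and bromodomain proteins bind acetylated histones.

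A level below is the log2 intensity of a gene's probe relative to the 75th percentile of its own array, so that 0 is the level of that percentile and negative values lie under it. Where a gene had several probes the brightest one was used. Levels of different genes are not comparable, because probes differ in their brightness. A difference is the mean level of the 4 RA arrays minus that of the 4 untreated arrays, given with its standard error (SE). A gene was called higher or lower when limma's adjusted p over all 55681 probes was under 0.05 and the difference exceeded 1.5-fold.

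Of the 92 genes, 23 were called higher after RA (25%) and 25 lower (27.2%). Over the brightest probes of all 31796 names the shares were 14.9% higher and 21.4% lower, and over all probes 12.9% and 21.6%. Among the genes well above background on all 8 arrays 19.4% were called higher and 26.8% lower. The 88 members of that kind gave 23 higher and 24 lower (26.1% and 27.3%). The share called lower was thus near that background, and the share called higher was above it, which was not tested. The conditions did not overlap in 60 of the 92 genes, against 41% of all names. For the 88 members well above background this was 59, against 55.9% of all genes of that kind. The median difference of these 88 was -0.09 on the log2 scale, against -0.20 for all such genes, and the median size of the difference was 0.64 against 0.60. Under array median scaling the members divided into 28 higher and 13 lower, in place of 23 and 25. Under all 5 other scalings and background corrections 21 of the 23 rises and 13 of the 25 falls were called again. The 2 rises that were not are *Hdac11* and *Smarca1*, and the 12 falls include *Arid4a*, *Brd1*, *Chd8*, *Hdac2*, *Hdac4*, *Hdac6*, *Hdac8*, *Kdm3b*, *Setdb1*, *Setdb2* and *Smarcd1*. All 48 called genes kept their sign on each of the 2 slides alone. Except for *Hdac8* and *Smarca1* this had to be so, as the conditions did not overlap in the other called genes. Only *Kdm4d* and *Kdm5d* were not well above background on any of the 8 arrays, and their levels are not interpreted.

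**Figure D1:**
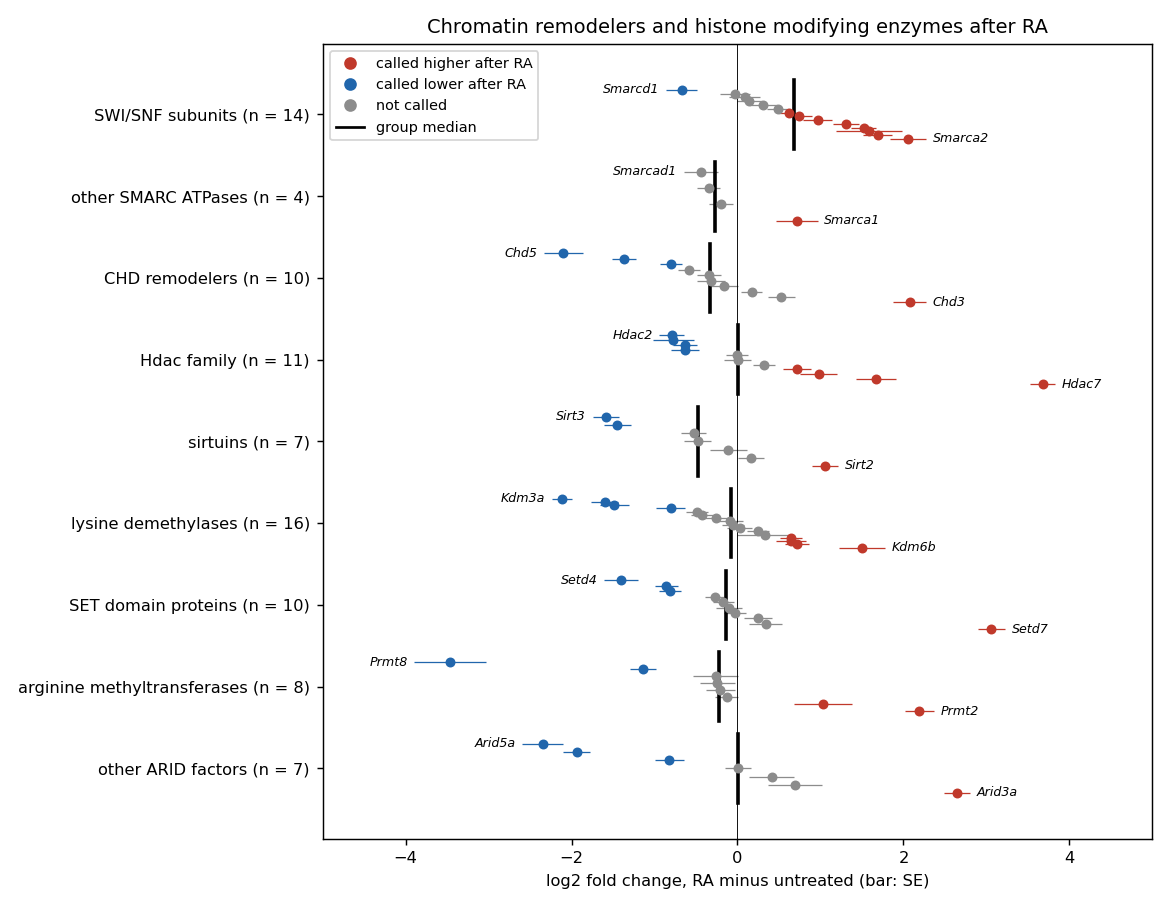
Difference between RA and untreated cells for each gene, by functional group, without the bromodomain proteins outside SWI/SNF (x axis, log2 scale; points, genes; bars, SE from limma; black lines, group medians). The SWI/SNF subunits have the highest median of the groups shown, 0.69, and the largest rise is that of *Hdac7* at 3.68. *Prmt8*, at the far left, was not well above background on any RA array, and its position depends on the processing.

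The study used RA to start differentiation towards neurons, and markers of several lineages were read on the same arrays. All 8 ES cell markers that were examined fell and all 8 primitive endoderm markers rose, while of 7 neural markers 1 rose and 2 fell. The summed linear level of the ES cell markers, in multiples of the 75th percentile, lay between 328 and 451 on the untreated arrays and was 18.9, 40.1, 16.9 and 11.7 on RA replicates 1 to 4, and that of the primitive endoderm markers between 30.4 and 35.3 before and 104 and 119 after. Of 6 mesoderm markers 2 rose and 1 fell, and their sums were 2.27 to 2.53 and 3.61 to 5.04. Of 5 trophoblast markers 3 rose (sums 4.48 to 5.74 and 11.6 to 18.1). Of 5 fibroblast markers *Col1a1*, *Col1a2* and *Postn* rose (sums 0.973 to 1.78 and 15.3 to 33.8), *Thy1* did not pass the test and *Fap* was not well above background in either condition. The sums of the neural markers were 13.0 to 22.1 before and 11.1 to 14.3 after. RA replicate 2 had the highest ES cell marker sum of the RA arrays. Of the SWI/SNF rises, *Smarca2*, *Smarce1*, *Smarcd3*, *Smarcc2*, *Arid1b* and *Smarcd2* were lowest on it among the RA arrays, and *Brd9* and *Brd7* were not. Of the rest of the 12 largest rises, *Chd3*, *Arid3a*, *Prmt2* and *Hdac9* were lowest on it too, but *Hdac7*, *Setd7* and *Kdm6b* were not. Of the 12 largest falls, *Kdm3a*, *Chd9*, *Arid5a* and *Setd4* were highest on it, and the others were not. Without RA replicate 2, 22 members were called higher and 24 lower, *Prmt1* and *Hdac8* being lost. The differences of *Smarcc2* and *Smarcd3* were then 1.61 and 1.88. The sums of the ES cell, primitive endoderm, mesoderm, trophoblast and fibroblast lists changed between the same conditions as the genes called below. The part of these cell types in those changes was not tested. In RNA from whole cultures, fewer cells of a type and less RNA per cell cannot be told apart.

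Among the SWI/SNF subunits, 8 of 14 (57.1%) rose after RA and 1 fell (7.14%), where 19.4% and 26.8% of all genes well above background did, with a median difference of 0.69 that stayed between 0.64 and 0.96 under every other processing tried. The rises were those of the alternative ATPase *Smarca2*, *Smarce1*, *Smarcd3*, *Smarcc2*, *Arid1b*, *Smarcd2*, *Brd9* and *Brd7*. *Smarcd1*, a core subunit of ES cells, fell. *Smarca4*, *Smarcc1*, *Arid1a*, *Arid2* and *Smarcb1* were not called. All 14 were well above background on every array.

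*Smarca2* encodes the ATPase that can take the place of *Smarca4*. Its level was -2.51, -3.23, -2.62 and -3.33 on the untreated arrays and -0.71, -0.95, -0.90 and -0.92 on the RA arrays. Every RA array lay above every untreated array, and the difference was 2.06 ± 0.21, or 4.16-fold (adjusted p = 0.000106). *Smarca4* itself was at 6.25, 5.92, 6.0 and 6.14 before and 6.57, 6.60, 6.50 and 6.57 after RA. Its arrays did not overlap either, but the difference of 0.48 ± 0.13 (adjusted p = 0.019) stayed under 1.5-fold, and with the replicate number as a block its adjusted p was 0.0656. *Smarca4* was called higher under quantile normalization, where the difference was 0.74, and a second *Smarca4* probe was also called higher at 0.65.

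*Smarcc2* and *Smarcc1* are the alternative scaffold subunits. *Smarcc2* stood at -1.89, -2.02, -1.73 and -1.88 before RA and at -0.26, -0.63, -0.28 and -0.27 after it. The conditions were apart on every array, with a difference of 1.52 ± 0.15 (adjusted p = 7.27e-05). *Smarcc1* read 1.44, 1.70, 1.65 and 2.05 and then 1.86, 2.17, 1.91 and 2.10. These ranges overlapped, the difference of 0.30 ± 0.17 did not pass the test (adjusted p = 0.192), and the 4 *Smarcc1* probes lay between -0.45 and 0.49, on both sides of 0.

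Of the Smarcd paralogs, *Smarcd3*, known from heart and nerve cells, was at -0.88, -1.06, -2.32 and -1.31 before and 0.07, -0.70, 0.64 and 0.74 after RA. The arrays of each condition varied widely, but the groups did not overlap and the difference was 1.58 ± 0.40 (adjusted p = 0.0129). *Smarcd1* went from -0.05, -0.20, -0.77 and -0.07 to -0.97, -0.88, -0.92 and -1.0. It was called lower at a difference of -0.67 ± 0.19 (adjusted p = 0.019), and this call was lost under array median scaling (-0.39), under normexp background correction (-0.57), in the authors' values (-0.55) and without RA replicate 4 (adjusted p = 0.0523). *Smarcd2*, the third paralog, rose by 0.96 ± 0.17 (adjusted p = 0.00212).

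*Smarce1*, the HMG box subunit, rose from 2.98, 2.28, 2.59 and 2.59 to 4.23, 4.13, 4.41 and 4.42. The difference of 1.69 ± 0.18 was 3.22-fold (adjusted p = 0.00011), and both *Smarce1* probes were called higher. *Arid1b*, one of the alternative ARID subunits that define the BAF form of the complex, rose by 1.31 ± 0.16, its 4 levels going from 0.87, 0.78, 0.99 and 1.21 to 2.21, 2.08, 2.27 and 2.52 (adjusted p = 0.000257). Its paralog *Arid1a* differed by 0.14 ± 0.15 (adjusted p = 0.441). The bromodomain subunits *Brd9* and *Brd7* rose by 0.75 ± 0.15 and 0.63 ± 0.13, and *Brd7* lost its call when its 2 probes were averaged, the second probe standing at -0.20, and without untreated replicate 2.

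**Figure D2:**
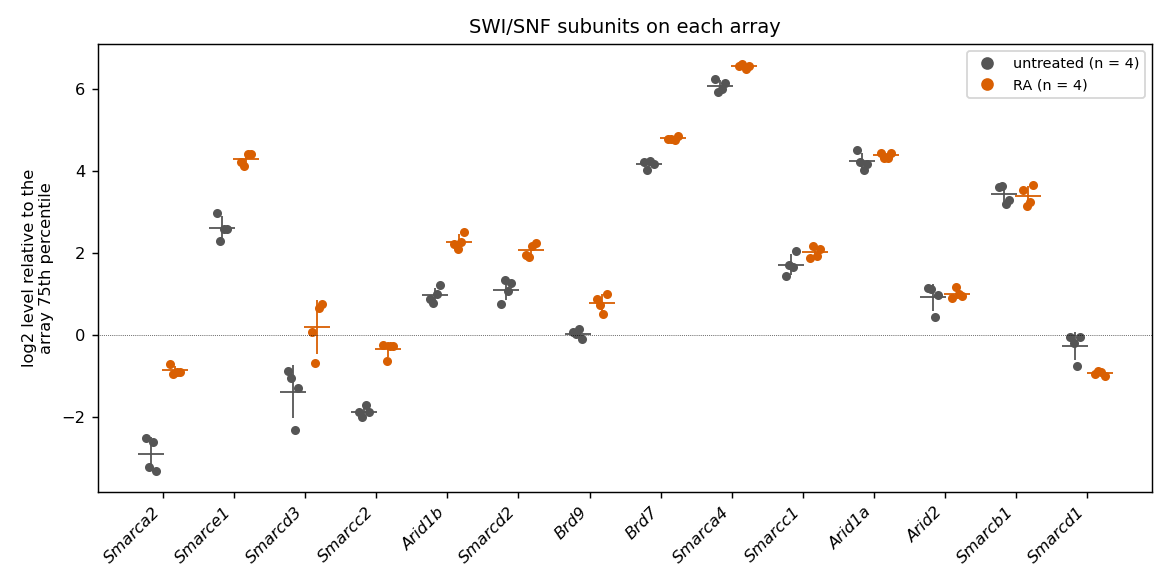
Levels of the 14 SWI/SNF subunits on each of the 8 arrays, in order of their difference (y axis, log2 level relative to the array's 75th percentile; points, arrays; horizontal marks and bars, mean ± SD of 4). In *Smarca2*, at the left, all 4 RA arrays lie above all 4 untreated arrays, and in *Smarcd1*, at the right, all 4 lie below.

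Paralogs were also set against each other within each array, which removes the scaling of the array, in 5 pairs taken after their values had been seen. The log2 difference between the *Smarca2* and *Smarca4* probes was -8.76, -9.15, -8.62 and -9.47 on the untreated arrays and -7.28, -7.56, -7.40 and -7.49 on the RA arrays, and so shifted towards *Smarca2* by 1.57 ± 0.20 (SE). The pair *Smarcc2* and *Smarcc1* shifted towards *Smarcc2* by 1.22 ± 0.21, and *Smarcd3* and *Smarcd1* towards *Smarcd3* by 2.25 ± 0.39. *Kdm6b* and *Kdm6a* shifted towards *Kdm6b* by 1.99 ± 0.34. *Hdac1* and *Hdac2* shifted towards *Hdac1* by 0.79 ± 0.22. In each of the 5 pairs of brightest probes the conditions did not overlap, so that the shift had to have the same sign on both slides. As the pairs had been chosen for their values this is a description with no test. With the other probes the shift was 1.41 for *Smarca2* and *Smarca4* and 1.03 to 1.97 for *Smarcc2* and *Smarcc1*. That of *Hdac1* and *Hdac2* rests on the brightest *Hdac1* probe, since with the other 2 probes it was 0.31 and 0.33, the conditions overlapped and slide 2 alone gave -0.36 and -0.03. The pair *Smarcd3* and *Smarcd1* and the pair *Kdm6b* and *Kdm6a* had 1 probe for each gene. Such a shift describes unequal change of the 2 probes read and does not say that either gene stayed constant.

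Of 15 other SWI/SNF subunits, under names outside the families above, 3 were called higher (20%) and 4 lower (26.7%), shares near those of all genes well above background, with a median difference of -0.19. *Phf10*, a PBAF subunit of proliferating progenitors, rose by 1.44, *Pbrm1*, which defines PBAF, by 0.77, and *Ss18l1* by 0.62. Its paralog *Ss18* fell by 0.61, and *Dpf1* and *Bcl11b*, known from nerve cells and T cells, fell by 2.88 and 2.89 and *Bcl11a* by 1.57. *Bcl11b* was well above background on 2 of the 4 RA arrays, so that the size of its fall is uncertain. *Actl6b*, the neuronal actin-related subunit, was not well above background in either condition.

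Among the remaining SMARC ATPases, 1 of 4 was called higher (25%) and none lower by limma, against a background of 19.4% and 26.8%, with 1 negative difference at an unadjusted p under 0.05. *Smarca1*, an ISWI ATPase, differed by 0.72 ± 0.25 (adjusted p = 0.0489), but its levels of 0.27, -0.49, -0.45 and 0.27 and 0.60, 0.19, 0.76 and 0.92 overlapped. The call was lost under quantile normalization, with the slide as a block, in the mean of its 2 probes, and without untreated replicate 2 or 3 or RA replicate 1, 3 or 4. Its paralog *Smarca5* differed by -0.20 ± 0.15 and was not called.

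*Smarcal1*, an annealing helicase of stalled replication forks, was the member whose probes disagreed most. The probes are shown by their first 30 bases with their mm9 positions on chromosome 1, because the result depends on which of them is read:
*Smarcal1* probe 1 (chr1:72679452-72679481, plus strand): aatgacatggaattcctggaagcagcagag
*Smarcal1* probe 2 (chr1:72679626-72679655, plus strand): tgacagggtcagaaaaggaaagaaacgaaa
*Smarcal1* probe 3 (chr1:72682168-72682197, plus strand): tgtcatgagatgaacctgtgccccagatgg

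The brightest, probe 1, differed by -0.35 ± 0.14 (adjusted p = 0.0771), and probe 2 by -0.31 ± 0.15 (adjusted p = 0.146). Probe 3, which lies downstream of both, read -0.97, -0.95, -0.63 and -1.09 before RA and 0.33, 0.40, 0.65 and 0.64 after it, a rise of 1.42 ± 0.16 (adjusted p = 0.00016). Of the 36 members with more than 1 probe well above background on all arrays, 27 had every probe on the same side of 0, 9 had probes on both sides, and none had probes called in opposite directions. In 11 of the 36, 1 probe was called and another was not.

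Of the 10 CHD remodelers 1 rose (10%) and 3 fell (30%), against 19.4% and 26.8% of all genes well above background, so that the share of falls was near it. Their median difference of -0.33 was close to that of all probes, and it was -0.05 under array median scaling. *Chd3*, an ATPase of the deacetylase complex NuRD, was the gene that rose, at 0.97, 1.73, 1.38 and 1.27 before and 3.28, 3.22, 3.42 and 3.73 after RA. All RA arrays were above the untreated ones, by 2.07 ± 0.20 or 4.21-fold (adjusted p = 6.81e-05). *Chd4*, the NuRD ATPase most used by ES cells, read 5.39, 5.37, 5.20 and 5.23 and 5.42, 5.60, 5.40 and 5.47. Its RA arrays were all above the untreated arrays by a small margin, and the difference of 0.17 ± 0.13 did not pass the test (adjusted p = 0.298).

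*Chd5*, the NuRD ATPase best known from neurons and testis, fell from 1.52, 0.79, 0.97 and 0.82 to -1.58, -0.94, -0.74 and -1.03. That is a difference of -2.10 ± 0.24 (adjusted p = 0.000162), opposite in sign to *Chd3*. *Chd9* went from 2.61, 2.32, 2.42 and 2.53 to 0.99, 1.33, 0.95 and 1.15. It fell by 1.37 ± 0.15 with no overlap (adjusted p = 0.000124), and *Chd8*, a repressor of β-catenin targets, by 0.80 ± 0.14 (adjusted p = 0.00162). *Chd7*, *Chd2*, *Chd1* and *Chd1l* were not called, nor was *Chd6*, whose difference of -0.58 ± 0.13 lay just under 1.5-fold. *Chd6* was called lower by its second probe (-0.71), in the mean of both probes, and without untreated replicate 2 or 4 or RA replicate 3 or 4. *Chd7*, at 0.53, was called higher under quantile normalization (0.69).

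In the Hdac family 4 of 11 genes were called higher and 4 lower (36.4% each), where 19.4% and 26.8% of all genes well above background were. The 4 that rose were *Hdac7* and *Hdac9* of class IIa, *Hdac10* of class IIb and *Hdac11*, the class IV enzyme. Those called lower were *Hdac2* and *Hdac8* of class I, *Hdac4* of class IIa and *Hdac6*, the tubulin deacetylase of class IIb. *Hdac1*, *Hdac3* and *Hdac5* were not called. Of the rises, *Hdac11* lost its call under normexp background correction. None of the 4 falls was called under array median scaling, and under quantile normalization 2 were.

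*Hdac7* showed the largest rise of all 92 genes. Its level was -0.36, 0.21, -0.07 and -0.02 in untreated cells and 3.56, 3.64, 3.69 and 3.57 after RA, so that all 4 RA arrays lay within a narrow range far above the untreated ones. The difference was 3.68 ± 0.15, or 12.8-fold (adjusted p = 2.02e-06), and it was 3.78 and 3.57 on the 2 slides taken alone. *Hdac9*, a class IIa enzyme prominent in heart and skeletal muscle, was at -3.75, -3.59, -3.07 and -3.57 before and -1.94, -2.32, -1.74 and -1.31 after RA. The groups did not overlap, and the rise was 1.67 ± 0.24 (adjusted p = 0.0007). Over the alternatives the *Hdac9* difference ranged from 1.02 to 1.95, and its call was kept. *Hdac11* rose by 0.98 ± 0.22 and *Hdac10* by 0.72 ± 0.17.

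*Hdac1* and *Hdac2* are the paired catalytic subunits of the NuRD, Sin3 and CoREST complexes. *Hdac1* read 5.89, 5.81, 5.31 and 5.72 before and 5.71, 5.68, 5.62 and 5.73 after RA. These ranges overlapped fully, with a difference of 0.00 ± 0.16 (adjusted p = 0.997) for the brightest of 3 probes and -0.48 for the lowest. *Hdac2* went from -0.98, -1.18, -0.76 and -1.20 to -1.81, -1.96, -1.79 and -1.72. It was lower on every RA array, with a difference of -0.79 ± 0.15 (adjusted p = 0.00302), and was under 1.5-fold with array median scaling (-0.51). *Hdac8* was called lower at -0.77 ± 0.24, although 1 untreated level of -1.46 lay among the RA levels of -1.92, -2.07, -1.38 and -1.43, and its call was lost under quantile normalization and without untreated replicate 1, 3 or 4 or RA replicate 1 or 2. *Hdac4* and *Hdac6* fell by 0.63 ± 0.17 and 0.63 ± 0.15, just over 1.5-fold, and lost their calls without untreated replicate 4 or RA replicate 3 and without RA replicate 4.

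**Figure D3:**
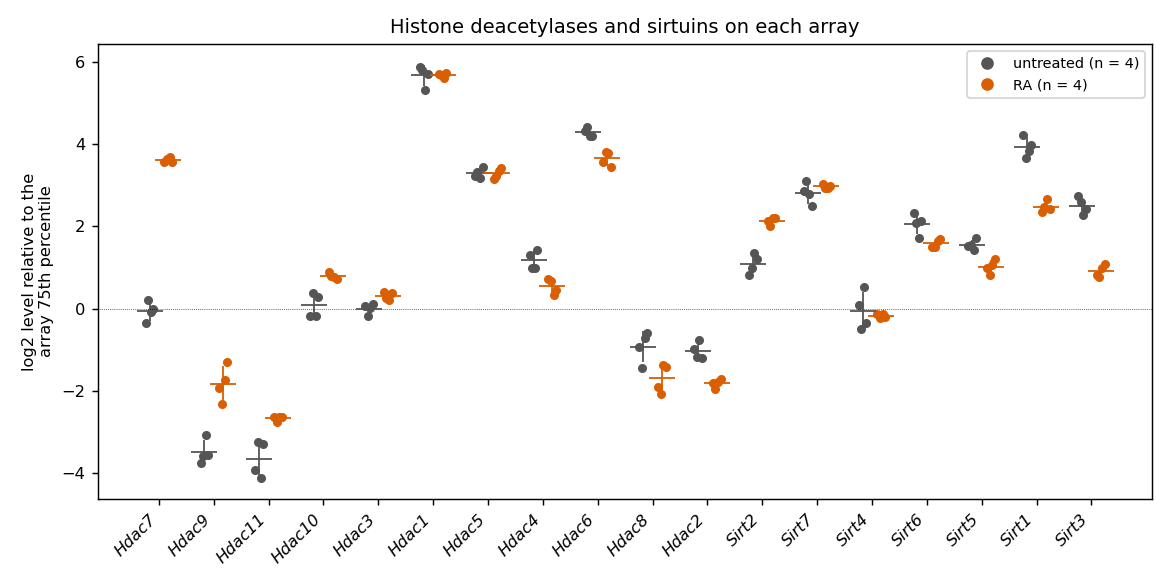
Levels of the 11 Hdac genes and then the 7 sirtuins on each of the 8 arrays, each family in order of its difference (y axis, log2 level relative to the array's 75th percentile; points, arrays; horizontal marks and bars, mean ± SD of 4). *Hdac7* stands out at the left, and *Sirt1* and *Sirt3* at the right end lie lower on all 4 RA arrays.

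Of 21 partners of these deacetylases in NuRD, Sin3, CoREST and NCoR, 7 were called higher (33.3%) and 3 lower (14.3%), against 19.4% and 26.8% of genes well above background, with a median difference of 0.08. *Mbd2*, the NuRD subunit that binds methylated DNA, rose by 2.69 and *Mta1* by 1.72, followed by *Gatad2a* at 1.27, the CoREST scaffold *Rcor1* at 1.22, *Rbbp7* at 1.08, *Tbl1x* at 0.89 and *Rcor3* at 0.85. *Sap30* fell by 1.23, *Rcor2* by 0.81 and *Sin3a* by 0.73. *Mbd3*, which takes the place of *Mbd2* in the other form of NuRD, differed by -0.47 (adjusted p = 0.0328) and stayed under 1.5-fold.

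Of the 7 sirtuins, the deacetylases that use NAD, 1 rose (14.3%) and 2 fell (28.6%), near the 19.4% and 26.8% of all genes well above background. *Sirt1*, the nuclear sirtuin, was at 4.22, 3.66, 3.83 and 3.99 before RA and 2.35, 2.46, 2.68 and 2.43 after it. No level overlapped, and the difference was -1.45 ± 0.16 (adjusted p = 0.000173). The mitochondrial sirtuin *Sirt3* went from 2.73, 2.59, 2.27 and 2.43 to 0.82, 0.78, 0.99 and 1.09. The RA arrays again lay below all untreated arrays, at a difference of -1.59 ± 0.16 (adjusted p = 7.64e-05). *Sirt2*, which is mainly cytoplasmic, moved the other way from 0.82, 0.98, 1.34 and 1.20 to 2.14, 2.02, 2.21 and 2.22, by 1.06 ± 0.16 (adjusted p = 0.000738). *Sirt5* and *Sirt6* passed the adjusted p but not 1.5-fold, at -0.53 ± 0.15 and -0.48 ± 0.16. With the replicate block *Sirt6* no longer passed (adjusted p = 0.099) and *Sirt5* stood at 0.0492. *Sirt5* was called lower without RA replicate 4 and *Sirt6* without untreated replicate 3, while *Sirt4* and *Sirt7* were not called.

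Of the 16 lysine demethylases 4 were called higher and 4 lower (25% each), near the shares of all genes well above background, with a median difference of -0.07, which was 0.20 under array median scaling. *Kdm6b*, *Kdm2b*, *Kdm2a* and *Kdm1a* rose, while *Kdm3a*, *Kdm4c*, *Kdm5b* and *Kdm3b* fell. *Kdm3a* and *Kdm4c* act on the methylated lysine of histone H3 bound by heterochromatin proteins, and *Kdm5b* acts on the methyl mark of active promoters.

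*Kdm3a* fell from 4.48, 4.42, 4.53 and 4.45 to 2.36, 2.43, 2.32 and 2.28. The replicates were tight in both conditions, and the difference was -2.12 ± 0.12 or 4.35-fold (adjusted p = 5.98e-06). *Kdm4c* stood at 3.08, 2.75, 2.49 and 2.91 before and 1.27, 1.27, 1.08 and 1.21 after RA, and so fell by 1.60 ± 0.16 (adjusted p = 8.64e-05). *Kdm5b* fell from 6.53, 6.58, 5.95 and 6.26 to 4.73, 4.90, 5.01 and 4.73. All RA arrays were lower, at a difference of -1.49 ± 0.18 (adjusted p = 0.000219), and 3 of its 4 probes were called lower. *Kdm3b*, the paralog of *Kdm3a*, fell by 0.80 ± 0.17, and lost its call in the mean with a second probe that was not well above background on any array.

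*Kdm6b* and *Kdm6a* remove the methyl mark that Polycomb complexes lay down. *Kdm6b* was at 2.17, 1.93, 0.81 and 1.58 in untreated cells, with replicate 3 the lowest, and at 3.13, 3.16, 3.06 and 3.14 after RA. The RA arrays were close together and above all untreated arrays, by 1.50 ± 0.27 (adjusted p = 0.00238). *Kdm6a*, the X-linked paralog, moved from 0.71, 0.70, 0.84 and 1.01 to 0.36, 0.25, 0.32 and 0.38. Its arrays did not overlap, but the difference of -0.49 ± 0.13 (adjusted p = 0.0183, and 0.0592 with the replicate block) stayed under 1.5-fold. *Kdm1a*, the flavin-dependent demethylase of CoREST, rose from 4.63, 4.48, 4.76 and 4.73 to 5.35, 5.30, 5.29 and 5.23. This was 0.65 ± 0.13 (adjusted p = 0.00406), or 1.56-fold. *Kdm2b*, which brings a Polycomb complex to unmethylated CpG islands, and its paralog *Kdm2a* rose by 0.72 ± 0.15 and 0.65 ± 0.18, and *Kdm2a* lost its call when its 2 probes were averaged and without untreated replicate 3 or RA replicate 1.

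**Figure D4:**
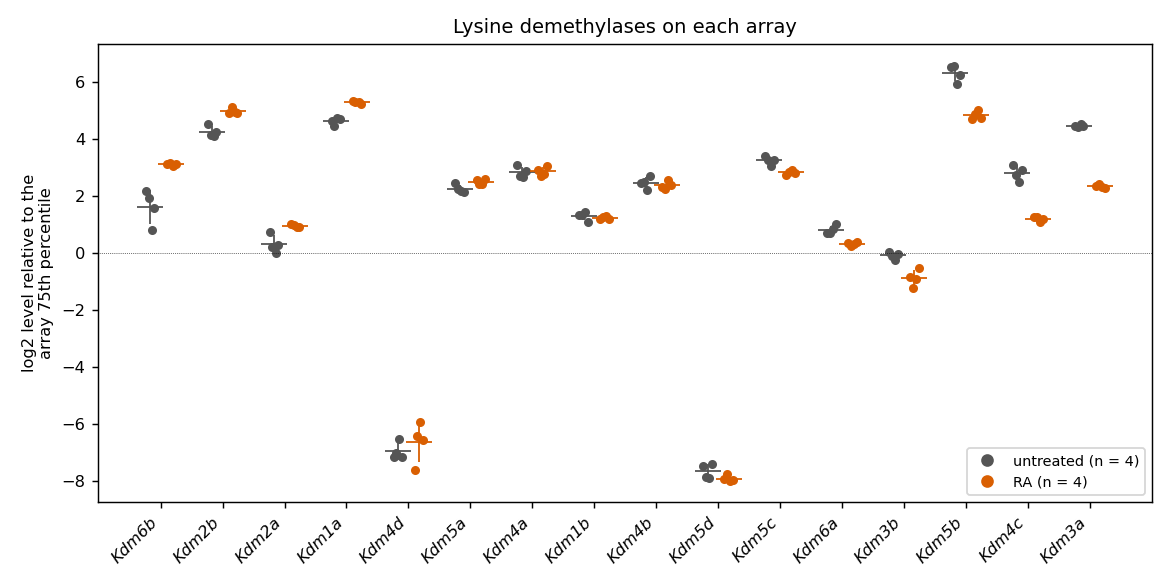
Levels of the 16 lysine demethylases on each of the 8 arrays, in order of their difference (y axis, log2 level relative to the array's 75th percentile; points, arrays; horizontal marks and bars, mean ± SD of 4). *Kdm6b* at the left is higher and *Kdm3a* at the right lower on all 4 RA arrays, and *Kdm4d* and *Kdm5d*, the lowest points, were not well above background on any array.

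Of 9 demethylases and arginine enzymes that carry other names, 1 rose (11.1%) and 5 fell (55.6%), against a background of 19.4% and 26.8%, with a median of -0.60. *Phf2* rose by 2.02, and *Hr* fell by 2.33, *Phf8* by 1.11, *Jmjd6* by 1.11, *Jmjd1c* by 0.65 and *Mina* by 0.60.

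In the SET domain family, 1 of 10 genes rose (10%) and 3 fell (30%), where 19.4% and 26.8% of all genes well above background did, the share of falls being near it. *Setd7*, a lysine methyltransferase of histone H3 and of several other proteins, read 0.25, 0.64, 0.35 and 0.46 on the untreated and 3.69, 3.66, 3.23 and 3.35 on the RA arrays. All RA arrays were far above the untreated ones, by 3.06 ± 0.17 or 8.34-fold (adjusted p = 4.79e-06), the second largest rise of the 92 genes. *Setd4* fell from 3.77, 3.82, 3.00 and 3.50 to 2.06, 2.32, 2.10 and 1.98, a difference of -1.40 ± 0.20 (adjusted p = 0.000686).

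*Setdb1*, which silences endogenous retroviruses in ES cells, fell from 2.67, 3.00, 2.80 and 2.57 to 1.88, 1.98, 1.88 and 1.88. The groups were apart, with a difference of -0.86 ± 0.14 (adjusted p = 0.00138) that was -0.58 and under 1.5-fold with array median scaling. Its paralog *Setdb2* fell by 0.81 ± 0.14 (adjusted p = 0.00151), a call that was lost in the mean of its 2 probes, the second probe standing at -0.25. The methyltransferase *Setd2*, which marks transcribed gene bodies, and *Setd1a*, which marks active promoters, differed by -0.03 ± 0.14 and -0.17 ± 0.12 and were not called. *Setd8* is now named *Kmt5a* and differed by 0.25 ± 0.17.

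Of 25 lysine methyltransferases and partners outside these names, 4 were called higher (16%) and 9 lower (36%), against a background of 19.4% and 26.8%, with a median of -0.06. *Whsc1* rose by 2.99, *Mll5* by 1.66, *Suv39h1* by 0.79 and *Ehmt2* by 0.60. *Suv420h1* fell by 1.88 and *Suv420h2* by 1.18, and the shared Mll complex subunits *Dpy30*, *Rbbp5* and *Wdr5* fell by 1.35, 0.86 and 0.81, while their partner *Ash2l*, at -0.38, and *Men1*, at 0.03, were not called. Of 12 acetyltransferases and partners, 1 was called higher (8.33%) and 3 lower (25%), against the same 19.4% and 26.8%. *Trrap* rose by 0.78, and *Myst4* fell by 2.87, *Kat2b* by 1.57 and *Ep300* by 0.78.

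Among the arginine methyltransferases, 2 of 8 rose and 2 fell (25% each), near the background of 19.4% and 26.8%. *Prmt2* was at 1.78, 1.84, 2.40 and 1.93 before and 4.35, 4.01, 4.23 and 4.12 after RA. The groups were well apart, by 2.19 ± 0.18 or 4.56-fold (adjusted p = 2.74e-05). *Prmt5*, the main enzyme of symmetric arginine dimethylation, fell from 3.97, 4.20, 4.04 and 4.40 to 2.82, 3.08, 3.22 and 2.94, a difference of -1.14 ± 0.16 (adjusted p = 0.000542). *Prmt8*, a membrane-bound enzyme known from the brain, was at -3.06, -2.89, -3.99 and -3.72 in untreated cells and was not well above background on any RA array. On the processed intensities it was at least 10.9-fold lower (adjusted p = 0.000294), against a floor that is little above its own undetected RA signals. That figure holds for these intensities alone, since the measured difference was -3.46, with -4.03 and -2.90 on slides 1 and 2 alone, but -1.20 with normexp and -0.97 in the authors' values. *Prmt8* was called lower under every alternative.

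*Prmt1*, the enzyme of most asymmetric arginine methylation, read 5.87, 4.40, 5.92 and 6.08 before RA and 6.63, 6.67, 6.40 and 6.72 after it. Untreated replicate 2 was far below the other untreated arrays. *Prmt1* was called higher by 1.04 ± 0.35 (adjusted p = 0.0448), and the call was lost with the replicate block (adjusted p = 0.051), without untreated replicate 1 (0.059) and without any 1 of the 4 RA replicates. Without untreated replicate 2 the difference was 0.65 and was called. A second *Prmt1* probe was called higher at 1.32.

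Of the bromodomain proteins outside SWI/SNF, *Brd3* differed by 0.47 (adjusted p = 0.0238, and 0.082 with the replicate block), under 1.5-fold. It was called higher under quantile normalization and array median scaling. *Brd2*, a BET protein that reads acetylated histones, fell from 5.61, 5.27, 5.35 and 5.31 to 4.42, 4.45, 4.44 and 4.51. The RA arrays were close together and lower, at a difference of -0.93 ± 0.13 (adjusted p = 0.000658), while a second *Brd2* probe, at -0.40, was not called. *Brd1* fell by 0.79 ± 0.21 (adjusted p = 0.016), and *Brd8* was not called.

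Of the 7 ARID proteins outside SWI/SNF 1 was called higher (14.3%) and 3 lower (42.9%), against a background of 19.4% and 26.8%. *Arid3a*, a DNA-binding factor with a role in extraembryonic lineages, rose from 1.52, 1.21, 0.95 and 1.14 to 3.97, 3.76, 3.79 and 3.87. This was 2.64 ± 0.16 or 6.24-fold (adjusted p = 6.87e-06), and both probes rose alike (2.64 and 2.68). *Arid5a*, which stabilises messenger RNAs of immune genes, fell from 2.25, 2.21, 1.68 and 1.89 to -0.65, 0.15, -0.07 and -0.79. Every RA array was lower, at a difference of -2.35 ± 0.25 (adjusted p = 0.000113). *Arid5b*, a partner of the demethylase *Phf2*, fell from 5.55, 5.25, 5.12 and 5.39 to 3.60, 3.54, 3.22 and 3.20, a difference of -1.94 ± 0.16 (adjusted p = 3.60e-05). *Arid4a* fell by 0.82 ± 0.17, and its paralog *Arid4b* differed by 0.69 ± 0.33 and was not called, although it was called higher under array median scaling (0.97) and with the slide as a block.

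Of 16 other remodeler ATPases and partners, 2 were called higher (12.5%) and 6 lower (37.5%), against a background of 19.4% and 26.8%, with a median of -0.41. *Baz2b* rose by 1.62 and *Baz1a* by 0.99, while *Ino80*, the ATPase of its own family, fell by 1.27, *Baz2a* by 1.22, *Cecr2* by 1.19, *Ruvbl2* by 1.07, *Ttf2* by 0.96 and *Hells* by 0.72.

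**Figure D5:**
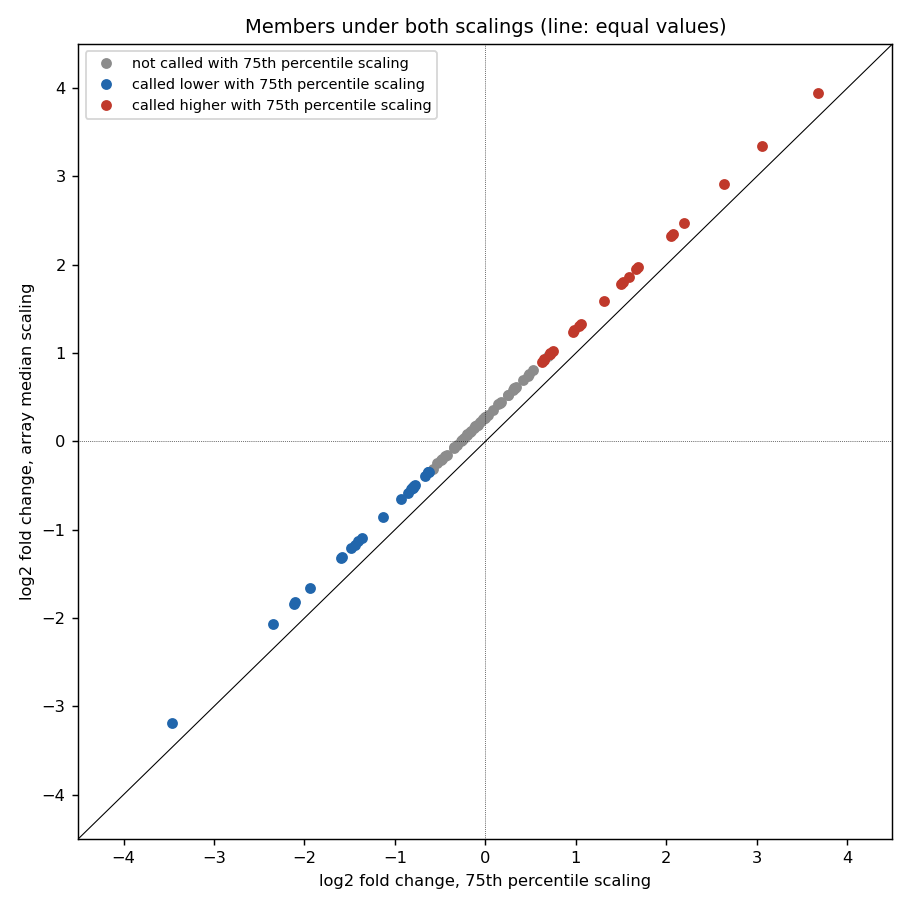
Difference of each of the 92 genes with each array scaled to its 75th percentile (x axis, log2) and to its median (y axis, log2), coloured by the call under the first scaling. Points lie above the line of equal values, and the split of calls moves from 23 higher and 25 lower to 28 and 13.

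RA acts through RAR and RXR receptors that bind paired hexamers, and the promoters of the members were searched for single such hexamers. The 250 bases before each start site were taken from RefSeq on GRCm38.p6, which holds 99 windows of 74 of the 92 genes, some genes having several start sites. The hexamer AGGTCA was searched on both strands, together with its form AGTTCA. The hexamer GGGTCA and its form GGTTCA were searched in the same way, and overlapping matches were counted. At least 1 was present in 28 of 99 member windows (28.3%), against 38.6% of all 32851 windows in the table. The share was 32% for windows of genes called higher, 29% for those called lower and 25.6% for those not called. Among the SWI/SNF subunits it was 2 of 14 windows (14.3%), which overlap each other and both belong to *Brd9*. The GC box GGGCGG on either strand was present in 63.6% of member windows and 32.7% of all windows. Member windows held a median of 19 CpG dinucleotides, SWI/SNF windows 28.5 and all windows 6. The farthest upstream window is shown for the rises of *Hdac7*, *Setd7*, *Smarca2* and *Smarcc2* and the fall of *Sirt1*, with the searched hexamers in capitals:
*Hdac7* (GRCm38.p6, chr15:97844503-97844752, minus strand): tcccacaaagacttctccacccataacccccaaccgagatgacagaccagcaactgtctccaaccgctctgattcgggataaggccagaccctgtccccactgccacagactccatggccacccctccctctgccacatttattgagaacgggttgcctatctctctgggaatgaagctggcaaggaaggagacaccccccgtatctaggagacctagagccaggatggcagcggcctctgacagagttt
*Setd7* (GRCm38.p6, chr3:51560824-51561073, minus strand): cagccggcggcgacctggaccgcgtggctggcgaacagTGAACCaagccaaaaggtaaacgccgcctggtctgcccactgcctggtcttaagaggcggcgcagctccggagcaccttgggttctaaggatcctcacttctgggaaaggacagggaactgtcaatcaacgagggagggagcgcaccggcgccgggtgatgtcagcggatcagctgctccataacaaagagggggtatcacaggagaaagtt
*Smarca2* (GRCm38.p6, chr19:26604910-26605159, plus strand): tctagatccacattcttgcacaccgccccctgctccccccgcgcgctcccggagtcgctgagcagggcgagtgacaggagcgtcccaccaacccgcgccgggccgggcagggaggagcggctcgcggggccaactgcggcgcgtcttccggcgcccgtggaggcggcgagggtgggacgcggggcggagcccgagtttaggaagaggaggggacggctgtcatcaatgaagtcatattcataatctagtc
*Smarcc2* (GRCm38.p6, chr10:128458986-128459235, plus strand): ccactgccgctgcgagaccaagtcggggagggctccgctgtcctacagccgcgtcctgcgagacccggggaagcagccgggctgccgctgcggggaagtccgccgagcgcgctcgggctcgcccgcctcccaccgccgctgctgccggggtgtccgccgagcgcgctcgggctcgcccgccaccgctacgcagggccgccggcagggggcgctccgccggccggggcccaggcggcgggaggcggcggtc
*Sirt1* (GRCm38.p6, chr10:63339036-63339285, minus strand): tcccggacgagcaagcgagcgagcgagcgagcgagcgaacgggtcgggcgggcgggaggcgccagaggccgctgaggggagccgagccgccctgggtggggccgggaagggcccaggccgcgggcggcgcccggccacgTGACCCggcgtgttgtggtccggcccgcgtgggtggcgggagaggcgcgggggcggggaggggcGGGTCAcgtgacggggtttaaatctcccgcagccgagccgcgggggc

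The *Setd7* window holds 1 hexamer and the *Sirt1* window 2, and *Setd7* rose while *Sirt1* fell. The windows shown for *Hdac7*, *Smarca2* and *Smarcc2* hold none, while 1 of the 3 other *Hdac7* windows in the table holds 1. A match describes the letters of this window only, and no match says nothing of sites elsewhere.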

How the data were processed

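RNA of 4 untreated and 4 RA-treated cultures was hybridized to 1-colour Agilent mouse arrays. The authors deposited, for each array, the scanner output of Agilent Feature Extraction (version 10.7.3.1), in which the processed intensity is corrected for background but not normalized between arrays. A deposited table of the authors' log2 values has a median of 6.89 in every column, with its normalization not given in the sources used here, and served as an alternative. Samples were grouped by their labels, and none was left out.

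In R (version 4.3.3), the 75th percentile over the 59305 spots of an array was subtracted from its log2 processed intensities. Control spots (3671) and outlier spots (124 to 145 per array) were left out, and spots of a probe were averaged. No spot was saturated, and 56.7% to 62.7% of spots were well above background. The number of arrays limits the precision. RA was compared with untreated in limma (version 3.58.1, lmFit and eBayes) over 55681 probes, with Benjamini-Hochberg adjustment, after the steps had been tested on simulated data. Replicate arrays correlated at 0.979 to 0.988 (untreated) and 0.988 to 0.994 (RA). Where all 4 arrays of a condition failed to put a gene well above background, its difference is given as a bound, against the lowest signal measured above background.

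The members, the functional groups, the marker lists and the lists of other chromatin genes were chosen with earlier results of these data known. Genes named by rule were the 12 largest rises and 12 largest falls among called members with no overlap between conditions, and 16 paralog and partner genes taken whatever their change. For those rises and falls the lack of overlap was part of the choice and adds nothing to the call. Other genes named in the text, among them *Smarca1*, *Sirt2* and *Brd2* with all their levels, were added after their values were seen, as were the 5 paralog pairs, the probes of *Smarcal1* and the promoter windows.

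Both conditions carry replicate numbers 1 to 4 in their labels. Over 27508 probes the deviations of same-numbered arrays from their condition's mean correlated at 0.187, 0.189, 0.104 and 0.152, against at most 0.142 for arrays of different numbers. Replicate 3 thus lay below that value. The same-numbered arrays of replicates 1 and 2 shared a slide, and those of replicates 3 and 4 did not. Whether the numbers pair the cultures is therefore not settled. The SE and adjusted p come from a fit without pairing, unless the replicate block is named. Each of the 2 slides held 2 untreated and 2 RA arrays. Alternatives were the scaling, the background correction, the authors' values, a filter on dim probes, the replicate number and the slide as blocks, each slide alone, each array left out, all probes of a gene averaged, and other call rules.

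The array's design supplies the gene names, of which 90 are current symbols and 2 synonyms (*Setd8* and *Prmt10*) in the reference table. Probe positions are on mm9, as the scanner files give them, and whether they lie in exons or untranslated regions was not analysed here. The values of 1 member are not reported here, although it is counted in the totals.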

Additional observations from a re-analysis of the deposited data

Results flagged for a closer look

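A single array lay far from the other 3 of its condition, by Dixon's test, in 3 of the 70 sets of 4 arrays examined for the named genes. Chance alone gives about 3.5 of 70. *Prmt1* on untreated replicate 2 was at 4.40, against 5.87 to 6.08 on the other untreated arrays, and its rise after RA lost its call with the replicate block. *Setdb1* on RA replicate 2 was at 1.98, against 1.88 on the 3 others, a gap of about 0.10 that leaves its fall as it was. *Smarcc2* on RA replicate 2 was at -0.63, against -0.28 to -0.26 on the others, and still above all untreated arrays.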

How the results depend on the processing

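The 23 rises and 25 falls became 25 and 22 under quantile normalization, 28 and 13 under array median scaling, 22 and 22 with normexp, and 26 and 20 with normexp and quantile normalization or in the authors' values. With the replicate number as a block (replicate block) 22 and 24 were called, the lost rise being that of *Prmt1* (adjusted p = 0.051). With 2 arrays of each condition, slide 1 alone gave 12 and 11 and slide 2 alone 11 and 12. A test against 1.5-fold itself (treat) gave 12 and 12. Leaving out 1 array at a time gave 21 to 23 rises and 23 to 26 falls, and 19 of the rises and 20 of the falls were called whichever array was left out. *Hdac1*, at 0.00, changed sign on slide 2 alone (-0.11), in the mean over all its probes (-0.31) and without single arrays (-0.12 to 0.07). The cause of these changes was not tested. Smaller falls, near 1.5-fold, depend on the scaling, and the 4 arrays per condition and the share of spots above background limit what low probes such as *Kdm4d* can show.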
